A study of Rattus norvegicus with 12 samples.

Results

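The lysosomal membrane proteins and channels described here are 7 rat genes of the 32754 in the count table, namely Lamp2, Mcoln1, Cd164, Scarb2, Abcb9, Litaf and Tmem175. They were taken by their Ensembl identifiers, and all 7 passed the filter on low counts that left 7378 genes for testing. Lamp2, Mcoln1, Cd164, Litaf and Tmem175 were chosen by their measured response to FGF18: they stand on the study's list of lysosomal and autophagy genes with a rise in WT RCS and none in FGFR3/4KO, a choice made on these same libraries. Scarb2 and Abcb9 are not on that list. The values of the FGF18 comparisons below therefore describe the choice and test nothing.

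The libraries came from RCS, a chondrocyte line grown from a rat chondrosarcoma, and were made by QuantSeq 3′ mRNA sequencing, which reads a transcript near its 3′ end so that counts do not scale with its length. WT RCS and a clone of RCS lacking the FGF receptors FGFR3 and FGFR4 (FGFR3/4KO) were cultured in medium with adult bovine serum, either with FGF18 overnight or without it, and each of the 4 groups held 3 libraries labelled as biological replicates. The control cells, called untreated in the sample records and vehicle in the paper, are called vehicle here. FGF18 was added at 50 µg/ml by the sample records but at 50 ng/ml by the paper's methods and figure captions, so the dose is uncertain. FGFR3/4KO is a single clone, so what the loss of the receptors did cannot be told apart from other features of that clone, and the comparison asks whether a response to FGF18 depends on these receptors.

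The membrane of the lysosome separates its acid hydrolases from the cytosol and carries the channels, transporters and receptors through which it exchanges ions, metabolites and signals with the cell. Its most abundant proteins are heavily glycosylated and form a coat on the inner face. Many lysosomal genes hold a CLEAR element, a palindromic E-box bound by TFEB, TFE3 and related transcription factors, in or near their promoters.

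RefSeq promoter windows of 300 bases on the GRCr8 build, from 250 bases before a gene's start to 50 after it, were matched by symbol for all 7 genes. The letters CACGTG, the core of the CLEAR element, were found on either strand in the windows of Mcoln1, Cd164 and Tmem175, which is 3 of 7 genes, against 6.42% of 33469 windows of all genes and 7.02% of the 21851 windows of protein-coding genes. The following stretches lie before the gene start, read 5′ to 3′ on the gene's own strand, and show those cores in capitals.
Mcoln1, chr12:6358211-6358257 (+): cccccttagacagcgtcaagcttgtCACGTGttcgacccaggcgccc
Cd164, chr20:46606307-46606362 (+): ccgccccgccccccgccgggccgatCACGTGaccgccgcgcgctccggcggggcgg
Tmem175, chr14:1234178-1234233 (-): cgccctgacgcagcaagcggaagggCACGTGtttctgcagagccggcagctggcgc
In Mcoln1 the core lay at bases -22 to -17 from the start, and a second copy lay just after the start at bases 5 to 10. In Cd164 it lay at -107 to -102 and in Tmem175 at -190 to -185. The longer palindrome TCACGTGA, which contains the core, was found in Mcoln1 at bases 4 to 11 and in Cd164 at -108 to -101. It was found in 0.777% of all windows and 1.02% of those of protein-coding genes. GTCACGTGAC was found in none of the 7, against 0.233% of all windows and 0.311% of those of protein-coding genes.

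Lamp2 and Litaf, whose values differed most between the FGF18 responses of the genotypes, are shown for contrast. Their windows hold no CACGTG, and neither do those of Scarb2 and Abcb9, which are not on the study's list. The capitals mark the nearest match before the start to the loose pattern CANNTG, where N is any base. That pattern is common, being found in all 7 windows and in 72.1% of all windows.
Lamp2, chrX:122087674-122087721 (-): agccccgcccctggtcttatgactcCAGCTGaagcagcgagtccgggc
Litaf, chr10:5163158-5163213 (+): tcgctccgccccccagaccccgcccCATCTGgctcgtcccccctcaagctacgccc
The letters GGGCGG, known as the GC box, were found in 6 of 7 windows, all but that of Mcoln1. They were found in 33.1% of all windows and 41.8% of those of protein-coding genes. TATAAA was found in none of the 7, against 14.2% of all windows and 13% of those of protein-coding genes. The share of G and C in the windows ranged from 54.3% in Lamp2 to 72.7% in Litaf. A CLEAR site printed for Mcoln1 by the authors, cgctCACGTGaccg, is the same run of letters as bases 1 to 14 of the RefSeq window after the start, and that printed for Tmem175, tcgccatctgaccc, stands at bases -99 to -86. That printed for Cd164, cagtcaagtgacaa, was not found in the window used here. The sites printed for Tmem175 and Cd164 do not hold the letters CACGTG. That of Tmem175 lies apart from the core shown above at -190 to -185. These matches are descriptions of letters and say nothing of binding.

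**Figure D1:**
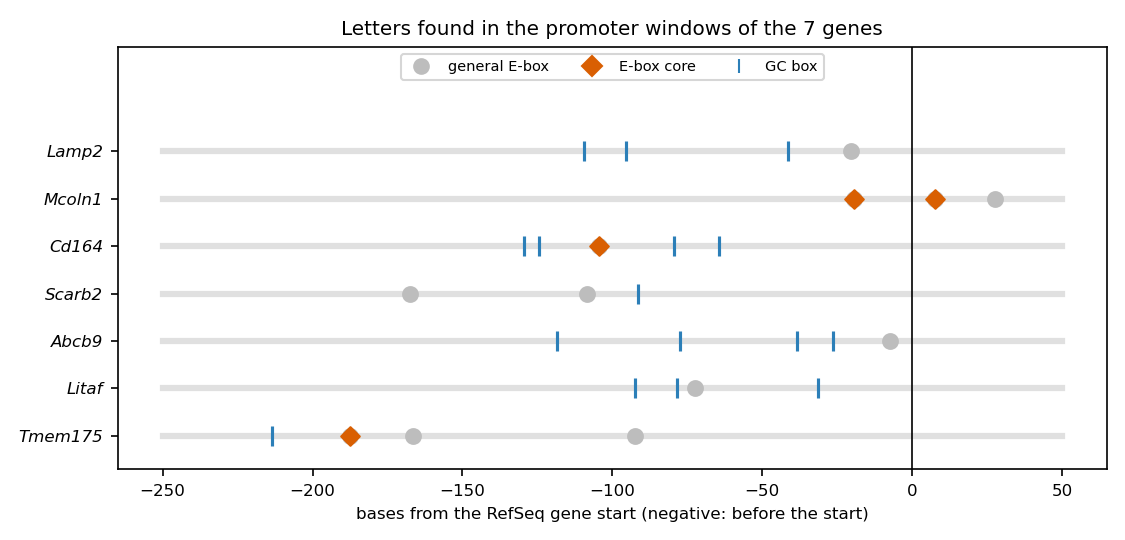
Positions of 3 letter patterns in the promoter windows of the 7 genes; the x axis gives bases from the RefSeq gene start, each row is a gene and each mark a match on either strand. Diamonds, the E-box core, stand in the rows of Mcoln1, Cd164 and Tmem175 only, while Lamp2, Scarb2, Abcb9 and Litaf have the general pattern.

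A library held between 373964 and 1196647 reads on genes, with FGFR3/4KO vehicle replicate 2 the lowest. Values are CPM, counts scaled to a common library total after TMM normalization, and 3 reads correspond to between 2.46 and 8.50 CPM in a library, a limit that covers counting error only. The 7 genes are low to moderate in these libraries, with between 125 and 522 reads for all of them together in a library. Of all reads in the deposited counts, uncounted rows included, 12.5% to 14.6% were counted on genes in the 6 WT libraries. In the 6 FGFR3/4KO libraries the share was 17.0% to 18.8%, without overlap, and its part in the genotype comparisons was not tested. Of 8 chondrocyte markers with a name, Sox9, Mia, Prelp, S100b, Col11a2 and Fmod were at 269 CPM or more in every library. Chad (1.1 to 19.7 CPM) and Epyc (0 to 9.52 CPM) were low. The sum of the 8 was 7820 to 8180 CPM in WT vehicle and 6780 to 7320 CPM in WT FGF18 libraries. In FGFR3/4KO it was 9020 to 9450 CPM with vehicle and 9280 to 9960 CPM with FGF18. The 13 markers of other cell types were low: the sums per library reached at most 34.6 CPM for 4 fibroblast or osteoblast genes, 3.70 CPM for the endothelial gene Flt1, 15.3 CPM for 3 blood cell genes, 34.5 CPM for 3 hepatocyte genes and 65.0 CPM for 2 neuron genes. The hepatocyte sum was 2 to 12.2 CPM in WT vehicle, 27.6 to 28.5 CPM in FGFR3/4KO vehicle and 0 to 9.21 CPM in FGFR3/4KO FGF18 libraries. Other sums that set compared groups apart were those of neuron genes (13.6 to 20.3 CPM in WT vehicle, 22.2 to 65.0 CPM in WT FGF18) and of fibroblast or osteoblast genes (17.4 to 20.4 CPM in WT vehicle, 24.1 to 30.6 CPM in FGFR3/4KO vehicle). The blood cell sum was 8.16 to 13 CPM in WT vehicle, 13.6 to 14.3 CPM in WT FGF18 and 6.45 to 7.09 CPM in FGFR3/4KO FGF18 libraries, and Flt1 was at 0, at 1.91 to 3.70 and at 0 to 1.32 CPM in these groups. The part of all these sums in the results was not tested. Fgfr3 and Fgfr4 were not analysed here by name, so the deletion itself was not checked on these counts. In bulk RNA, fewer cells with a transcript and less of it per cell cannot be told apart.

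Lamp2 encodes a heavily glycosylated membrane protein, one form of which is the receptor of chaperone-mediated autophagy, and the counts do not separate its forms. In WT vehicle libraries Lamp2 was at 8.70, 24.5 and 25 CPM, and in WT FGF18 libraries at 51.6, 51.7 and 38.2 CPM. In FGFR3/4KO it was at 41.4, 45.3 and 39.5 CPM with vehicle and at 39.5, 31.9 and 41.5 CPM with FGF18. The WT vehicle libraries were thus the lowest of all 12, without overlap with any other group, and the other 9 libraries shared a range from 31.9 to 51.7 CPM. The value of WT vehicle replicate 1 rests on 6 reads, and the spread of that group (SD 47.8% of the mean) exceeded the 24.7% that counting error alone would give.

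Litaf encodes a small protein of the late endosomal and lysosomal membrane, mutated in a form of Charcot-Marie-Tooth disease. It was at 33.3, 40.8 and 23 CPM in WT vehicle and at 71.3, 73.7 and 64.1 CPM in WT FGF18 libraries. In FGFR3/4KO it was at 38.3, 62.3 and 37.3 CPM with vehicle and at 36.9, 41.7 and 52.5 CPM with FGF18. The WT FGF18 libraries lay above the other 9, while both FGFR3/4KO groups overlapped each other and reached into the range of WT vehicle. The value of 62.3 CPM in FGFR3/4KO vehicle replicate 2, the shallowest library, rests on 22 reads.

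Mcoln1 encodes TRPML1, a cation channel that releases calcium from the lysosome. It was at 40.6, 35.4 and 26 CPM in WT vehicle and at 59.0, 67.9 and 62.8 CPM in WT FGF18 libraries. In FGFR3/4KO it was at 21.4, 19.8 and 21.9 CPM with vehicle and at 35.6, 31.9 and 26.7 CPM with FGF18. WT FGF18 was the highest group and FGFR3/4KO vehicle the lowest, each apart from all other libraries, with WT vehicle and FGFR3/4KO FGF18 overlapping between them. Mcoln1 was the only one of the 7 genes whose FGF18 libraries lay wholly above the vehicle libraries in FGFR3/4KO, where 6.38% of all genes tested did so.

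Tmem175 encodes a lysosomal channel for potassium and protons, and was the lowest of the 7 genes in reads. It was at 23.2, 19 and 16 CPM in WT vehicle and at 31.2, 30.6 and 39.4 CPM in WT FGF18 libraries. In FGFR3/4KO it was at 24.5, 8.50 and 19.7 CPM with vehicle and at 14.5, 24.8 and 27.6 CPM with FGF18. WT FGF18 again lay above all other libraries, and the remaining 3 groups overlapped. The lowest value, in FGFR3/4KO vehicle replicate 2, rests on 3 reads.

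Cd164 encodes endolyn, a sialomucin that cycles between endosomes, lysosomes and the cell surface. It was at 92.8, 80.2 and 69.0 CPM in WT vehicle and at 113, 134 and 106 CPM in WT FGF18 libraries. In FGFR3/4KO it was at 81.2, 133 and 114 CPM with vehicle and at 92.3, 124 and 119 CPM with FGF18. The groups of WT RCS did not overlap, but the FGFR3/4KO libraries spread across both of them, and replicate 1 was the lowest of each FGFR3/4KO group.

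Scarb2 encodes LIMP-2, which carries β-glucocerebrosidase to the lysosome. It was at 36.2, 55.8 and 48.0 CPM in WT vehicle, at 55.7, 55.5 and 62.8 CPM in WT FGF18, at 53.6, 68.0 and 63.6 CPM in FGFR3/4KO vehicle and at 67.2, 65.6 and 70.0 CPM in FGFR3/4KO FGF18 libraries. Group means in that order were 46.7 ± 9.83, 58.0 ± 4.17, 61.7 ± 7.36 and 67.6 ± 2.24 CPM (SD, n = 3 each), and each group overlapped the next.

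Abcb9 encodes TAPL, an ABC transporter that moves peptides from the cytosol into the lysosome. Alone of the 7 genes, Abcb9 had its highest group mean in WT vehicle. It was at 58.0, 62.6 and 54.0 CPM in WT vehicle and at 45.9, 46.9 and 43.1 CPM in WT FGF18 libraries. In FGFR3/4KO it was at 33.7, 17 and 23 CPM with vehicle and at 31.6, 31.9 and 30.4 CPM with FGF18. All 6 WT libraries lay above all 6 FGFR3/4KO libraries, and WT vehicle was the highest group, where it was the lowest for Lamp2, Cd164, Scarb2 and Litaf. The value of 17 CPM in FGFR3/4KO vehicle replicate 2 rests on 6 reads.

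**Figure D2:**
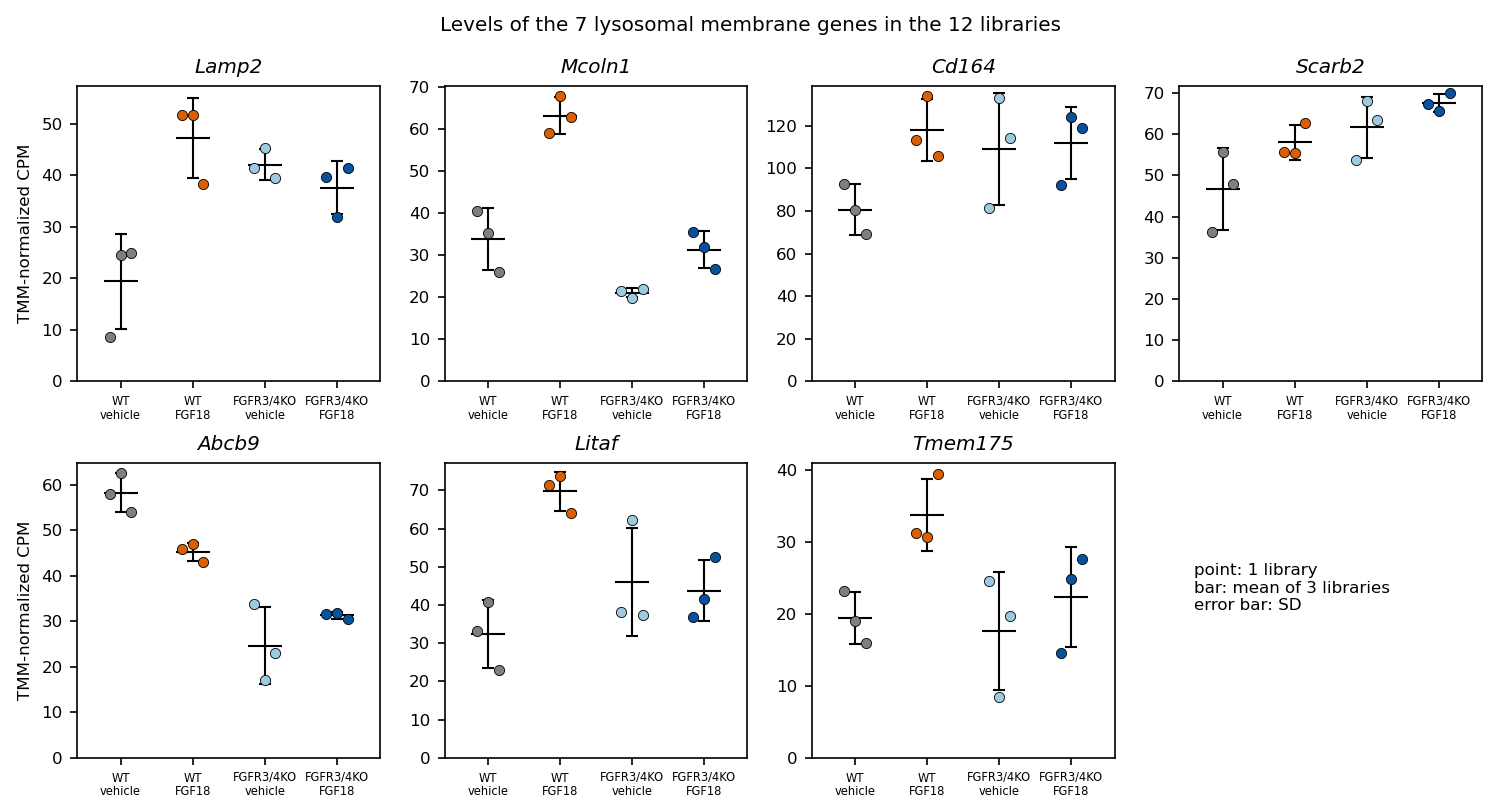
TMM-normalized CPM (y axis, from 0) of each of the 7 genes in the 12 libraries by group (x axis); points are libraries, bars the mean and error bars the SD of 3 libraries. WT FGF18 is the highest group for Lamp2, Mcoln1, Cd164, Litaf and Tmem175, while Abcb9 is highest in WT vehicle and Scarb2 in FGFR3/4KO FGF18.

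Described as fold changes in WT RCS, FGF18 against vehicle gave a log2 value of 1.25 ± 0.28 for Lamp2 (standard error), 1.14 ± 0.24 for Litaf, 0.92 ± 0.22 for Mcoln1, 0.80 ± 0.31 for Tmem175 and 0.56 ± 0.18 for Cd164. Scarb2 was at 0.30 ± 0.20 and Abcb9 at -0.35 ± 0.21. By the edgeR quasi-likelihood test with an FDR under 0.05, 4 of 7 were called higher (Lamp2, Litaf, Mcoln1 and Cd164) and 0 lower, where 12.9% of all genes tested were called higher and 12.8% lower. The libraries of the groups did not overlap for 5 genes in the upward direction, against 20.2% of all genes, and for Abcb9 in the downward direction, against 19.5%. The call of Cd164 was lost with DESeq2, with library totals alone and without WT vehicle replicate 2 or 3 or WT FGF18 replicate 2, where its value lay between 0.44 and 0.56. Since the study chose 5 of the 7 genes on this contrast, nothing is read from these counts. The sum of the 7 genes was 292.8, 318.2 and 260.8 CPM in WT vehicle and 427.9, 460.1 and 416.5 CPM in WT FGF18 libraries.

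In FGFR3/4KO the same comparison gave log2 fold changes from -0.15 ± 0.27 for Lamp2 to 0.54 ± 0.28 for Mcoln1, with a median of 0.15 for the 7 genes and 0.01 for all genes. Tmem175 was at 0.27 ± 0.34, Abcb9 at 0.30 ± 0.27, Scarb2 at 0.15 ± 0.20, Cd164 at 0.07 ± 0.19 and Litaf at 0.03 ± 0.25. With edgeR, 0 of 7 genes passed an FDR of 0.05, as did 0% of all genes, and DESeq2 likewise called 0 of the 7. At an unadjusted p under 0.05, 0 of the 7 and 478 of the 7378 genes passed. The 95% interval for Mcoln1 ran from -0.03 to 1.11 and that for Lamp2 from -0.70 to 0.41, and changes of any size within these intervals are not excluded.

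The difference of the FGF18 effects between genotypes was described by the interaction, FGFR3/4KO minus WT on the log2 scale. It was -1.39 ± 0.39 for Lamp2, -1.11 ± 0.35 for Litaf, -0.53 ± 0.46 for Tmem175, -0.49 ± 0.26 for Cd164, -0.37 ± 0.36 for Mcoln1 and -0.16 ± 0.28 for Scarb2. For Abcb9 it was 0.65 ± 0.34, the only value above 0. With edgeR, 2 of 7 genes (Lamp2 and Litaf) passed downward, where 4.96% of all genes did, and 0 passed upward, where 5.91% did. Both genes are on the study's list. The call of Lamp2 was lost without WT vehicle replicate 1 (-1.08 ± 0.37), WT FGF18 replicate 2 (-1.30 ± 0.42) or FGFR3/4KO FGF18 replicate 2 (-1.27 ± 0.42). That of Litaf held in 4 of the 12 fits that left out a library, those without WT vehicle replicate 2, WT FGF18 replicate 3, FGFR3/4KO vehicle replicate 3 and FGFR3/4KO FGF18 replicate 3, and its value ranged from -1.31 to -0.88 over the 12. With all libraries kept, the call of Litaf was also lost with DESeq2 (FDR = 0.0646), and in edgeR with library totals (FDR = 0.0564), with no filter (FDR = 0.0501) and with a filter of 1 CPM in 3 libraries (FDR = 0.0567). The 95% interval for Mcoln1 ran from -1.12 to 0.37, and no difference between genotypes in its response was shown.

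**Figure D3:**
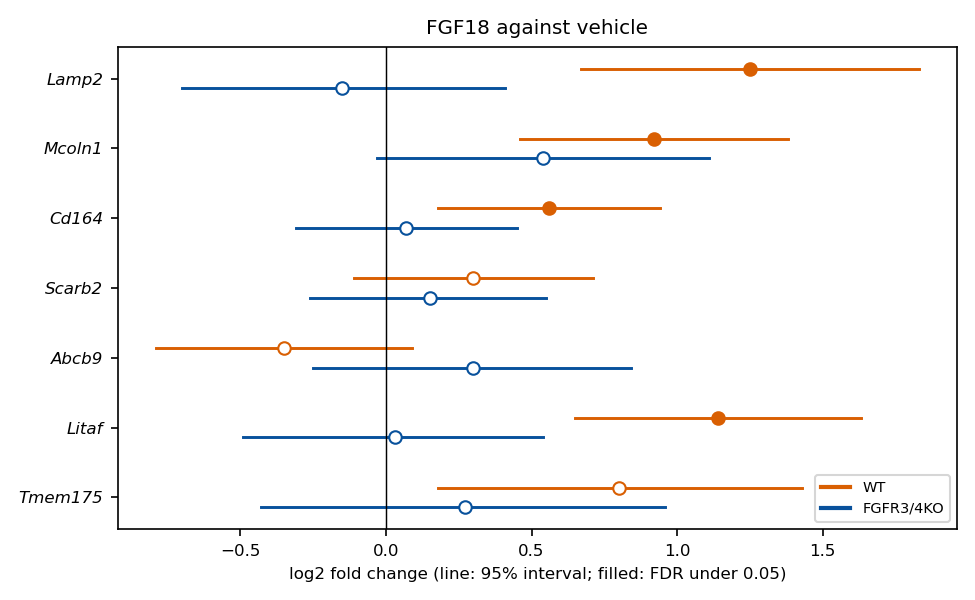
Log2 fold change of FGF18 against vehicle (x axis) for each of the 7 genes in WT and in FGFR3/4KO; points are edgeR estimates from 3 libraries a group, lines their 95% intervals, and filled points have an FDR under 0.05. In WT the values run from -0.35 for Abcb9 to 1.25 for Lamp2, and in FGFR3/4KO from -0.15 to 0.54 with every interval reaching across 0.

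The genotype comparisons were not the ones on which the genes were chosen, but they share libraries with them. The WT vehicle libraries, which are low in Lamp2, enter both the FGF18 response of WT and the comparison of genotypes with vehicle. In the same way, the WT FGF18 libraries enter the comparison of genotypes with FGF18. They had the highest group mean for Lamp2, Mcoln1, Cd164, Litaf and Tmem175, the genes on the study's list. Scarb2 and Abcb9, too, were taken up with earlier results of these libraries known. For none of the 7 genes is the FDR therefore independent evidence. Under vehicle, Abcb9 was lower in FGFR3/4KO than in WT, at 24.6 ± 8.46 against 58.2 ± 4.30 CPM (SD, n = 3 each), which is -1.18 ± 0.25 on the log2 scale (standard error, edgeR quasi-likelihood test, FDR = 0.00164). It was below WT in all 3 libraries and kept its call in all 12 fits that left out a library, with values from -1.45 to -1.06. Lamp2 was higher, at 42.0 ± 2.99 against 19.4 ± 9.26 CPM, with a log2 fold change of 1.05 ± 0.31 (edgeR, FDR = 0.0204). Without WT vehicle replicate 1, the library of 6 reads, Lamp2 was at 0.74 ± 0.29 (edgeR, FDR = 0.112), and without FGFR3/4KO vehicle replicate 1 or 3 at 1.05 ± 0.35 (FDR = 0.06) and 1.10 ± 0.36 (FDR = 0.0563).

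In all, 1 of 7 genes was called higher and 1 lower in FGFR3/4KO with vehicle, where 8% of all genes tested were called higher and 6.07% lower. Mcoln1 was at -0.64 (95% interval -1.22 to -0.06), with all 3 FGFR3/4KO libraries below those of WT, and did not pass (edgeR, FDR = 0.133). The intervals of the remaining genes were 0.02 to 0.83 for Cd164, -0.05 to 0.82 for Scarb2, -0.11 to 1.01 for Litaf and -0.76 to 0.75 for Tmem175, and none of them passed. FGFR3/4KO libraries lay wholly above those of WT for 1 gene and wholly below for 2, each direction against 17.1% of all genes. Of all calls in this comparison, 56.8% were upward with TMM scaling and 38.2% with library totals alone, which moved the median of all genes from -0.01 to -0.13, and the calls of Abcb9 and Lamp2 were made under either scaling.

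With FGF18 present, the genes that passed were Mcoln1 and Litaf. Mcoln1 was lower in FGFR3/4KO than in WT, at 31.4 ± 4.46 against 63.3 ± 4.46 CPM (SD, n = 3 each), which is -1.02 ± 0.22 on the log2 scale (edgeR, FDR = 0.00066), and kept its call in all 12 fits that left out a library. Litaf was lower, at 43.7 ± 7.99 against 69.7 ± 5.00 CPM, with a log2 fold change of -0.66 ± 0.22 (edgeR, FDR = 0.0208). This call of Litaf was lost with DESeq2 (FDR = 0.0511) and without WT FGF18 replicate 1 or 2 or FGFR3/4KO FGF18 replicate 1 or 2, where its value lay between -0.64 and -0.54. Thus 2 of 7 genes were called lower and 0 higher with edgeR, where 17% of all genes were called lower and 16.9% higher, with 3 of the 7 at an unadjusted p under 0.05, as were 3173 of all 7378 genes, and 1 called by DESeq2, which called 2031 of all genes.

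Abcb9 was at -0.53 ± 0.22 in that comparison, with a 95% interval from -1 to -0.07 and no overlap between groups, and did not pass (edgeR, FDR = 0.0667), while upper-quartile scaling and library totals gave -0.58 and -0.59 with an FDR of 0.0468 and 0.0478. Tmem175 was at -0.54 (interval -1.13 to 0.04, edgeR FDR = 0.148), again without overlap. Lamp2, the gene furthest above WT with vehicle, was at -0.34 with FGF18 (interval -0.85 to 0.16), Cd164 at -0.07 (-0.42 to 0.29) and Scarb2 at 0.23 (-0.15 to 0.61). FGFR3/4KO libraries lay wholly below those of WT for 4 genes, against 21.5% of all genes, and wholly above for Scarb2, against 20.5%. Over the 7 genes the median was -0.53 on the log2 scale, and over all genes -0.03. Most of the 7 were chosen for a rise in WT FGF18 libraries and none in FGFR3/4KO, so nothing is read from this median.

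**Figure D4:**
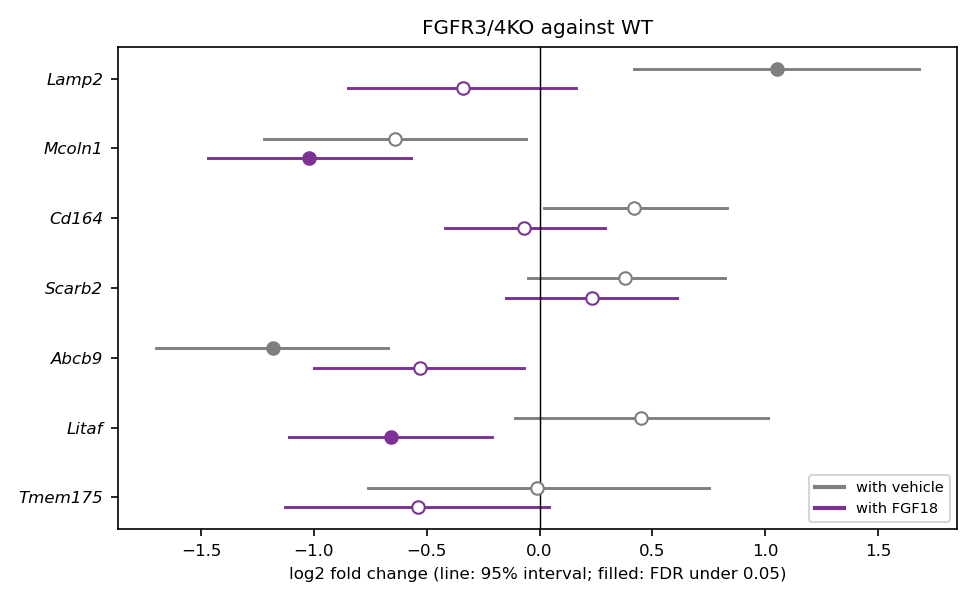
Log2 fold change of FGFR3/4KO against WT (x axis) for the 7 genes with vehicle and with FGF18; points are edgeR estimates from 3 libraries a group, lines their 95% intervals, and filled points have an FDR under 0.05. Filled points are Lamp2 (1.05) and Abcb9 (-1.18) with vehicle, and Mcoln1 (-1.02) and Litaf (-0.66) with FGF18.

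The 3 companion lists of lysosomal genes with a name place these values among related genes, and their choice too was made with earlier results known. Of 20 other lysosomal membrane genes, 17 were tested, and Atp6v1g2, Clcn4 and Slc2a6 were too low. In WT RCS, FGF18 raised 2 of the 17 and lowered 0, where 10.1% of the 1411 other named genes were called higher and 13.7% lower: P2rx4, an ATP-gated channel found on lysosomes (log2 fold change 0.82 ± 0.27, edgeR FDR = 0.0264), and Atp6ap2, an accessory protein of the proton pump (0.46 ± 0.16, FDR = 0.0362). In FGFR3/4KO, 0 of the 17 were called. With vehicle, 2 of the 17 were higher in FGFR3/4KO than in WT and 1 was lower, where 8.5% and 5.53% of named genes were. Cdip1, which shares a domain with Litaf, was higher (0.89 ± 0.19, edgeR FDR = 0.00159), as was the transporter gene Dirc2 (1.31 ± 0.30, FDR = 0.00342), and P2rx4 was lower (-1.47 ± 0.39, FDR = 0.00993).

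With FGF18, 2 of these 17 genes were higher in FGFR3/4KO and 3 lower, where 18.6% and 14.7% of the other named genes were. P2rx4 was at -2.11 ± 0.30 (edgeR, FDR = 4.63e-06), Atp6v1a, a subunit of the proton pump, at -0.70 ± 0.17 (FDR = 0.00216) and Dirc2 at 1.02 ± 0.26 (FDR = 0.00304). The median of the list was -0.22. That of the 7 genes was -0.53, a value tied to their choice by the FGF18 response. The median of the list was 0.17 for FGF18 in WT. The interaction was called for 0 of the 17, where 3.83% of the other named genes were called below 0 and 6.24% above 0.

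Of 22 genes of lysosome positioning, fusion and signalling, 17 were tested. In WT RCS, FGF18 raised 2 and lowered 1 of these, against 10.1% and 13.7% of the other named genes. Flcn, which encodes folliculin, a regulator of amino acid signalling at the lysosome, rose (1.79 ± 0.30, edgeR FDR = 4.51e-05), as did Borcs6, a subunit of the complex that moves lysosomes along microtubules (0.85 ± 0.28, FDR = 0.0248), and Stx17, the SNARE of autophagosomes, fell (-0.76 ± 0.22, FDR = 0.0137). In FGFR3/4KO, 0 of the 17 were called, and the interaction was called for Flcn alone (-1.87 ± 0.47, edgeR FDR = 0.00959), where 3.83% of the other named genes had a called interaction below 0 and 6.24% above 0. With vehicle, 2 were higher in FGFR3/4KO than in WT, Vps37b (0.87 ± 0.23, FDR = 0.0107) and Arl8a (0.49 ± 0.16, FDR = 0.0408), and 0 were lower, against 8.5% and 5.53% of the other named genes. With FGF18, 2 were higher and 4 lower, against 18.6% and 14.7% of the other named genes, led by Flcn (-1.60 ± 0.28, edgeR FDR = 5.72e-05), Borcs6 (-1.21 ± 0.28, FDR = 0.00134) and Arl8a (0.54 ± 0.15, FDR = 0.00668).

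Of 16 genes of soluble lysosomal proteins and their makers, 12 were tested, and some of them are on the study's list of induced genes. In WT RCS, FGF18 raised 6 of the 12 and lowered 0, where 10.1% of the other named genes were called higher and 13.7% lower. The 3 with the smallest p were Psap, the precursor of the saposins (0.76 ± 0.11, edgeR FDR = 1.11e-05), Cst3, the protease inhibitor cystatin C (0.68 ± 0.12, FDR = 0.000113), and the carboxypeptidase gene Scpep1 (0.68 ± 0.13, FDR = 0.000231). In FGFR3/4KO 0 of the 12 were called. The interaction was called below 0 for 2 of the 12, Psap (-0.73 ± 0.16, edgeR FDR = 0.0029) and Scpep1 (-0.73 ± 0.19, FDR = 0.0096), and above 0 for none, against 3.83% and 6.24% of the other named genes. With FGF18 present, 6 of the 12 were lower in FGFR3/4KO than in WT and 0 higher, where 14.7% and 18.6% of the other named genes were, among them Cpq (-1.83 ± 0.30, edgeR FDR = 2.64e-05), Scpep1 (-0.65 ± 0.13, FDR = 0.000225) and Plbd2 (-0.55 ± 0.16, FDR = 0.00705). The median of the list was -0.51 there and -0.24 with vehicle, where 1 gene was higher (Psap, 0.50 ± 0.11, FDR = 0.00331) and 1 lower (Cpq, -1.61 ± 0.37, FDR = 0.00357), against 8.5% and 5.53% of the other named genes. Differences between the lists and the 7 genes were not tested.

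**Figure D5:**
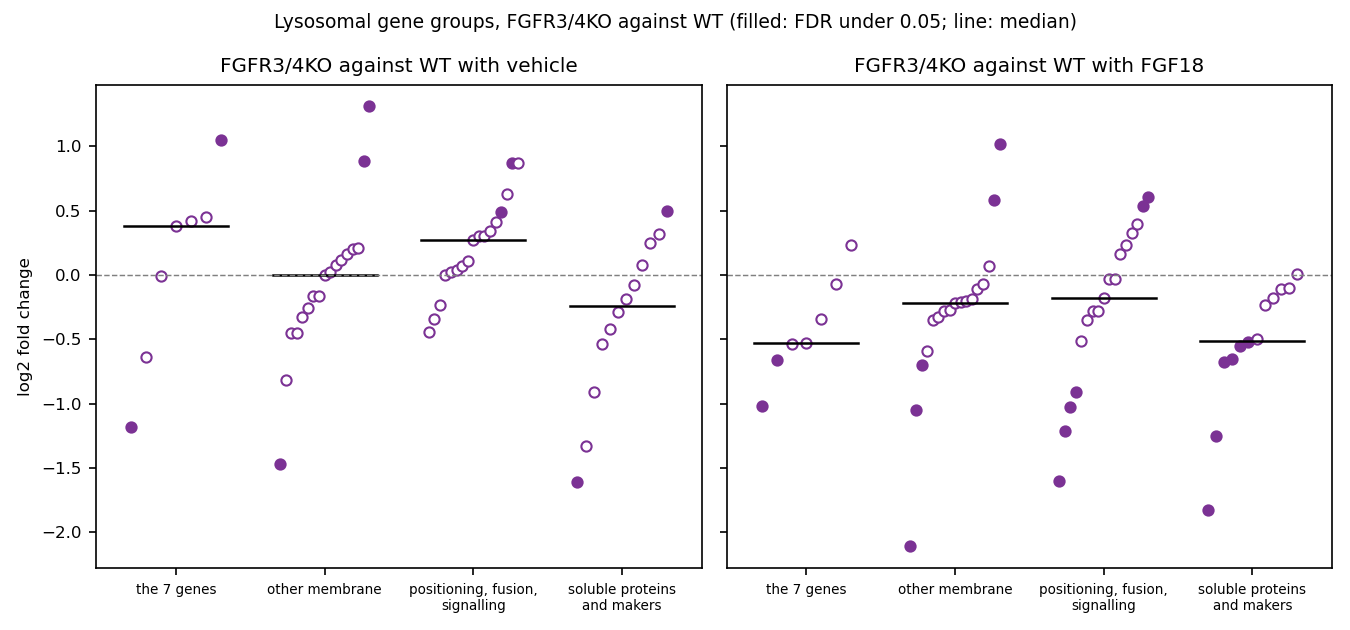
Log2 fold change of FGFR3/4KO against WT (y axis) with vehicle (left) and with FGF18 (right) for the 7 genes and the 3 companion lists (x axis); each point is a gene, filled where the FDR is under 0.05, and lines are medians. The medians are 0.38, 0.00, 0.27 and -0.24 with vehicle and -0.53, -0.22, -0.18 and -0.51 with FGF18, in the order of the axis.

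The 7 genes did not share a single pattern across the libraries. Over the 12 libraries, Pearson's r of log2 CPM was above 0 for 15 of the 21 pairs of genes, with a median of 0.36, from -0.69 for Scarb2 and Abcb9 to 0.77 for Lamp2 and Scarb2. After the mean of each group was taken away, r was above 0 for 10 of 21 pairs, with a median of -0.04. All pairs share library depth and the design of 4 groups, so these values are descriptions.

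Among 1049 other named genes with a mean of at least 20 CPM, those closest to each gene over the 12 libraries were as follows. For Lamp2 they were Wiz (r = 0.86), Rnd3 (0.84) and Rtn4 (0.80), and for Litaf Atp6ap2 (0.93), Fstl1 (0.91) and Fam20c (0.90). For Mcoln1 they were Rpl23 (0.94), Nagpa (0.93) and Iscu (0.91), and for Tmem175 Thoc6 (0.88), Degs1 (0.87) and Lta4h (0.87). For Cd164 they were Rtn1 (0.87), Timp2 (0.82) and Ctc1 (0.79), for Scarb2 Cnih4 (0.88), Wiz (0.87) and Ddx39a (0.83), and for Abcb9 Med12 (0.91), Nme1 (0.89) and Ddc (0.89). Wiz was close to both Lamp2 and Scarb2, and no other gene was named for more than a single member. Atp6ap2 and Nagpa are also in the companion lists above.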

How the data were processed

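Raw read counts, not normalized, are what the authors deposited for each gene and library, with 5 further rows for uncounted reads. They come from htseq-count on STAR alignments to rn6 after trimming by Trim Galore. The gene model named in the methods, Gencode, is not one of rat genes, while the identifiers are those of rat Ensembl, and tool versions and strand setting are not given in the sources used here. Uncounted reads, 81.2% to 87.5% of all reads in the deposited counts, stayed out of library sizes and tests. Those labelled as of too low alignment quality were 71.2% to 79.8%. This label concerns the alignment of a read and not its sequencing, and its cause was not tested. Reads that do not appear in the deposited counts are not part of these shares.

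Counts were analysed with edgeR 4.0.16 in R 4.3.3. filterByExpr (minimum count 10, minimum total 15) kept 7378 genes, libraries were scaled by TMM, and all 12 libraries were fitted together, each group having its own mean, and tested by quasi-likelihood, with Benjamini-Hochberg adjustment over all genes tested and a threshold of 0.05. A standard error is the log2 fold change over the root of the F statistic. The test was also run on simulated counts in which a gene had the same spread in every group. That run does not show how the test behaves where groups differ in spread. DESeq2 1.42.0 and other scalings, filters and fits were alternatives, and the closing part gives their effect. Labels give the groups and replicates. Where replicates are technical, p-values measure only their spread. Replicates differed by more than counting error, with a chi-square per degree of freedom from 1.56 to 5.67. It was 1.56 to 1.87 between vehicle replicates and 2 to 5.67 between FGF18 replicates. The fit shares its estimate of the spread over all groups, and the effect of this on the results was not tested.

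Names of other genes came from the 1998 identifiers that a table of the study pairs with a symbol, 1418 of them tested, and none of that table's values was used. From each companion list, genes past the threshold were counted and up to 3 of those with the smallest p named. Promoters are those of RefSeq on GRCr8. The members and lists were chosen with earlier results of these data known.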

Additional observations from a re-analysis of the deposited data

Results flagged for a closer look

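The effect of FGF18 differed between the genotypes for Lamp2 by -1.39 ± 0.39 on the log2 scale (standard error) and for Litaf by -1.11 ± 0.35, FGFR3/4KO minus WT. Both are listed because edgeR's interaction test, a test of the difference itself, had an FDR under 0.05 over all 7378 genes, as it did for 10.9% of them. In WT RCS the FGF18 effect was 1.25 for Lamp2 and 1.14 for Litaf, and in FGFR3/4KO it was -0.15 and 0.03. The means of Lamp2 behind these values were 19.4 and 47.2 CPM in WT RCS with vehicle and FGF18, and 42.0 and 37.6 CPM in FGFR3/4KO. Those of Litaf were 32.4 and 69.7 CPM in WT RCS and 46.0 and 43.7 CPM in FGFR3/4KO. Both genes belong to the study's list of genes induced in WT but not in FGFR3/4KO, so the flag repeats the choice on the same libraries.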

How the results depend on the processing

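Leaving out each library in turn, the number of the 7 genes called ranged from 3 to 5 for FGF18 in WT and 0 to 2 for the interaction. It was 1 to 2 for FGFR3/4KO against WT with vehicle and 1 to 2 with FGF18, and stayed at 0 for FGF18 in FGFR3/4KO. Of between 7522 and 7708 genes tested in these fits, 1322 to 2117 were called for FGF18 in WT and 561 to 880 for the interaction. Between genotypes 679 to 1211 were called with vehicle and 2060 to 2519 with FGF18, and 0 to 1 for FGF18 in FGFR3/4KO. None of the 7 genes had a called interaction without WT vehicle replicate 1, WT FGF18 replicate 2 or FGFR3/4KO FGF18 replicate 2. The interaction count was 1 in place of 2, Litaf having lost its call, with DESeq2, with library totals alone, with no filter and with a filter of 1 CPM in 3 libraries, and the count with FGF18 was 1 in place of 2 with DESeq2. Under the alternatives that kept all libraries no direction of the 7 genes turned. Leaving out a library turned values near 0: the ranges were -0.11 to 0.21 for Cd164 and -0.11 to 0.24 for Litaf with FGF18 in FGFR3/4KO, -0.24 to 0.19 for Tmem175 between genotypes with vehicle, and -0.14 to 0.08 for Cd164 between genotypes with FGF18. For FGF18 in WT, Cd164 lost its call with DESeq2 (0.56, FDR = 0.0501) and library totals (0.48, edgeR FDR = 0.0641), and without WT vehicle replicate 2 or 3 or WT FGF18 replicate 2, and Tmem175 gained a call with the likelihood-ratio test and with only the WT groups in the fit, and without FGFR3/4KO vehicle replicate 2 or FGFR3/4KO FGF18 replicate 1. Genes called between genotypes with vehicle fell from 1038 to 687 and 679 without FGFR3/4KO vehicle replicate 1 or 3, and with FGF18 in FGFR3/4KO 20 were called in place of 0 without a filter. The cause of these changes was not tested.

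The labels do not say whether replicate numbers pair the libraries. Deviations from group means had a mean correlation of -0.03 for same-numbered libraries and 0.02 for others, and 0 of 18 same-numbered pairs exceeded 0.1. Deviations sum to 0 within a group, so these means depend on each other, and pairing is not excluded. With the replicate block, 4 of the 7 genes were called for FGF18 in WT, 0 in FGFR3/4KO, and 2 for the interaction and each comparison of genotypes, as without it. Depth limits the low genes most: Tmem175 in FGFR3/4KO vehicle replicate 2 rests on 3 reads (8.50 CPM) and Lamp2 in WT vehicle replicate 1 on 6 reads (8.70 CPM).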
